A study of Mus musculus with 24 samples.

Results

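The presynaptic vesicle release machinery was followed in hypothalamic RNA as 39 genes, listed by symbol and known role, out of 45706 genes in the table. All 39 had a row in the table and all 39 passed the filter on low counts, so none is missing from the tests below. Whole hypothalamus came from obese (DIO) male mice with a mean body weight of 53 g, housed in pairs. Every mouse received a daily injection for 5 days and tissue was frozen 2 h after the final one. The saline group received isotonic saline. The group labelled PSD-95i received UCCB01-147 at 25 mg/kg, an inhibitor of the postsynaptic scaffold PSD-95. The group labelled PICK1i received mPD5, a PICK1 inhibitor, dosed at 56 mg/kg. PICK1 is a protein that binds AMPA receptor subunits at the postsynaptic side. Diet-induced obesity, male sex, pair housing and the injection schedule were common to the 3 groups, and lean mice were not analysed here. Each group had 8 libraries of poly(A) RNA, with totals of 4762703 to 9228858 estimated counts. The protocol gives 6 saline mice while the labels give 8 saline libraries. Which mouse each library came from is not stated, so p-values measure the spread between these samples.

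Neurotransmitter leaves a nerve terminal when a vesicle fuses with the plasma membrane. Vesicles are tethered by synapsins, guided to release sites by Rab3 and its effectors, and docked and primed at the active zone by RIM, Munc13, ELKS, liprin, Bassoon and Piccolo proteins. Fusion is driven by the SNARE complex of synaptobrevin (Vamp genes) on the vesicle with syntaxin and SNAP-25 on the plasma membrane, held by complexins and triggered by calcium bound to synaptotagmins. NSF and its SNAP adaptors (Napa, Napb) take spent complexes apart, and dynamin retrieves the membrane. In the hypothalamus the same machinery serves fast transmission by glutamate and GABA, and related proteins serve the release of neuropeptides. PSD-95 and PICK1 act mainly on the receiving side of the synapse.

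Snap25 codes for the most abundant transcript of the 39 per length and is spliced from a pair of alternative coding exons, so the exons that separate its protein forms are shown first. The protein-coding transcripts Snap25-201 and Snap25-202 each have 7 coding exons in GENCODE M21 and share all but exon 5. Exon 5 is 118 bases long in both, on the forward strand of GRCm38, at chr2:136770057-136770174 in Snap25-201 and at chr2:136769743-136769860 in Snap25-202. The 2 exons differ at 31 bases, which are in capitals.

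Snap25-201 exon 5: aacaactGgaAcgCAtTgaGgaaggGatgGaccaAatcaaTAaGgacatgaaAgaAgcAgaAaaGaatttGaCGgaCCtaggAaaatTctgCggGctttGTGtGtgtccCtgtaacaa
Snap25-202 exon 5: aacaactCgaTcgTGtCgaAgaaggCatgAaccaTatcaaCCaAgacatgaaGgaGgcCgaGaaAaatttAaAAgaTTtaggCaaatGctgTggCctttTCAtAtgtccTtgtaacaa

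Snap25-201 took 67.9 ± 2.12% of the Snap25 estimate in saline libraries (SD, n = 8 in every group). Its share was 69.2 ± 1.11% with PSD-95i and 70.2 ± 1.57% with PICK1i. Snap25-202 held 31.1 ± 2.15%, 29.7 ± 1.17% and 28.7 ± 1.54% in the same order. Over the 24 libraries the share of Snap25-201 ran from 63.5% to 72.4%. For both transcripts the gap between the saline and PSD-95i means was smaller than the saline SD. The gap between the saline and PICK1i means was slightly larger than that SD. These shares were not tested. Assignment of reads to transcripts is itself estimated, and the annotated transcripts differ in length too (2116 and 1014 bases), so reads outside exon 5 also enter it.

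Each of the 39 genes was assigned to 1 of 7 roles. These were 7 SNARE and disassembly genes, 9 calcium sensors and complexins, 8 active zone and priming genes, 4 genes of Rab3 and its effector, 7 vesicle membrane proteins, 3 synapsins and dynamin 1 (Dnm1). The role of calcium sensors takes in every synaptotagmin of the 39 by family name, and calcium sensing is not claimed for each. Levels between genes were compared as CPM, the count scaled to a common library total, per kilobase of transcript. They were averaged over the 6 saline libraries other than replicates 2 and 3. Snap25 stood at 678.7 ± 29.5 CPM per kilobase (SD, n = 6). Vamp2, the main neuronal synaptobrevin, followed at 456.0 ± 21.5, and Syp, which codes for the vesicle protein synaptophysin, at 334.4 ± 20.7. Rab3a, the main synaptic Rab3, stood at 265.9 ± 15.9 and Dnm1 at 185.7 ± 10.6 CPM per kilobase. Each of these 5 stood apart from the next in order by more than the larger SD of the pair.

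**Figure D1:**
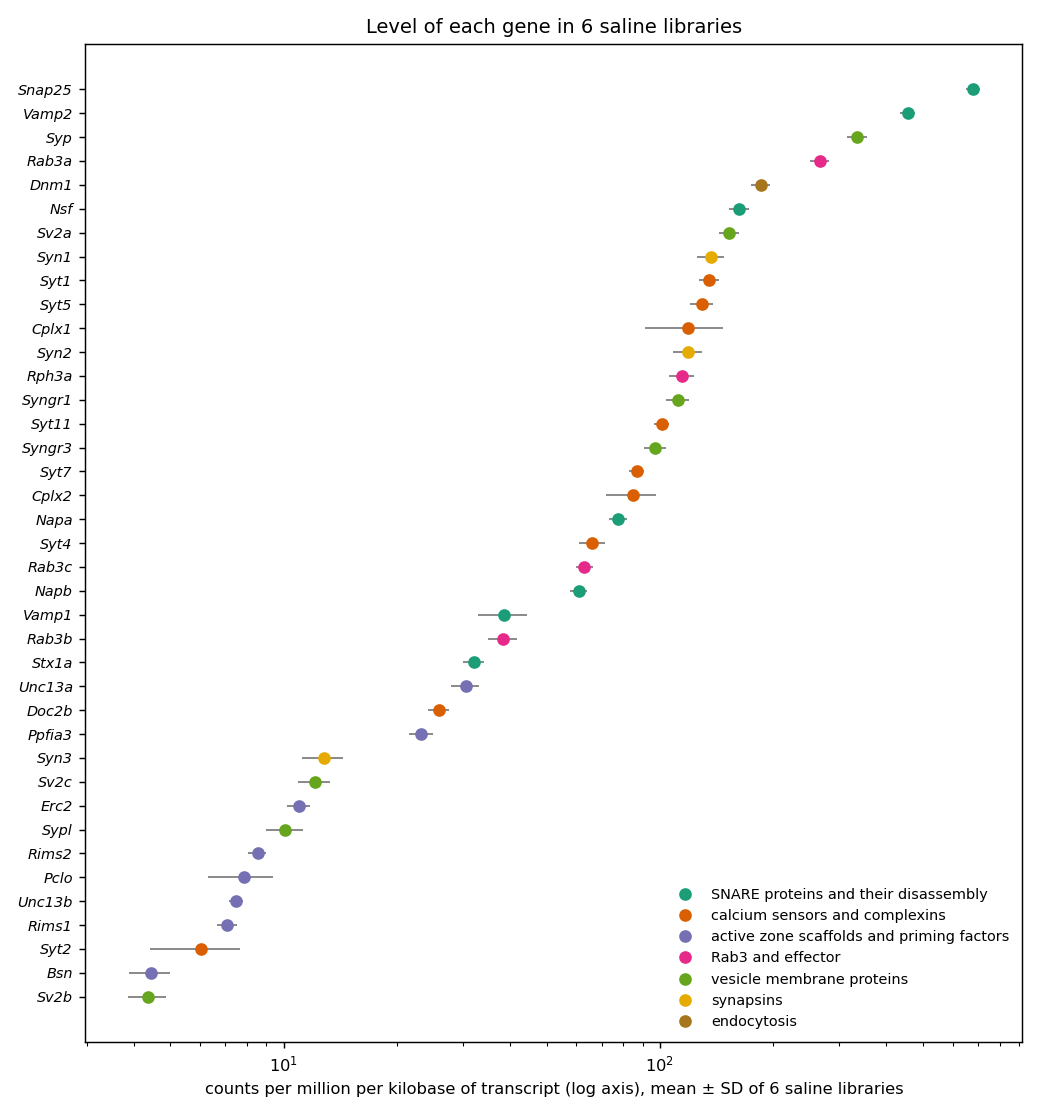
Level of each of the 39 genes as CPM per kilobase of transcript on a log axis, as mean ± SD of 6 saline libraries and coloured by role. Snap25 is at 678.7 and Sv2b at 4.36 CPM per kilobase, and the active zone genes fill much of the lower part.

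The middle of the order was not resolved in the same way. Among the 38 pairs of neighbours, the gap was larger than the larger SD in 16. Syn1, Syt1 and Syt5 stood at 136.6 ± 11.2, 135.1 ± 8.44 and 129.0 ± 9.12 CPM per kilobase and did not differ beyond their spread. Syt1 codes for the fast calcium sensor of release, and Syn1 for synapsin I. All 8 active zone and priming genes stood at or below 30.5 ± 2.64 CPM per kilobase, the level of Unc13a, which codes for the priming factor Munc13-1. The lowest levels were those of the giant scaffold gene Bsn (Bassoon), at 4.44 ± 0.551, and of Sv2b, at 4.36 ± 0.5 CPM per kilobase. The highest and the lowest level differed 155.7-fold. The per-length level of Ppfia3 (liprin-alpha-3) is uncertain, because only 3.2% of its counts lay on a transcript with a length in the annotation used.

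In 12 of the 39 genes a single transcript held at least 5% of the counts, and the median share of the leading transcript was 77.6%. Stx1a, the gene of syntaxin-1A, was 1 of 3 exceptions in kind. Its leading transcript Stx1a-205 is annotated as a retained intron and took 49.8 ± 3.35% of its saline counts (SD, n = 8 in every group), 50.7 ± 2.99% with PSD-95i and 51.4 ± 3.92% with PICK1i. The protein-coding Stx1a-201 held 28.9 ± 2.19%, 28.9 ± 2.67% and 27.7 ± 2.51%. Syn3 (synapsin III) likewise had a leading retained intron transcript, with 82.0 ± 4.69% of counts in saline. In Pclo (Piccolo) the leading transcript, Pclo-203, is a retained intron as well, with 56.8 ± 5.41% in saline, 56.4 ± 6.87% with PSD-95i and 49.5 ± 11% with PICK1i. Exons of 15 of the 39 genes overlapped an exon of another annotated gene. In 4 of them the overlapping gene held more than 10% of the member's count, all on the opposite strand: Colgalt1 for Unc13a, Gm14703 for Syp, Araf for Syn1 and Timp3 for Syn3. The library kit keeps strand, but whether the counting used it is not given in the sources used here, so the counts of these 4 genes are uncertain to that extent.

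The 24 libraries are neural and hypothalamic by their markers. All 20 general neuron genes and 27 of 28 genes of hypothalamic nuclei had a median of at least 1 CPM. The 28 hypothalamic genes summed to 1607 to 2715 CPM in saline libraries, 2148 to 2609 with PSD-95i and 2069 to 2848 with PICK1i. Saline replicates 2 and 3 held anterior pituitary transcripts, with the 16 pituitary genes at 78239 and 57750 CPM against 512 to 639 CPM in the other 6 saline libraries. Only 6 of these 16 genes had a median of at least 1 CPM over all libraries, and Gh, growth hormone, was at 0 CPM in several. PICK1i replicate 6 held the highest sum of 20 genes of cortical and hippocampal glutamatergic neurons, 2676 CPM against 1042 to 1133 CPM in the other 7 PICK1i libraries, and the lowest hypothalamic sum of its group. Saline 6 had the highest cortical and hippocampal sum of its group, 1693 CPM against 904 to 1168 CPM in the other saline libraries. The member tests below are given with and without saline 2, saline 3 and PICK1i 6, and saline 6 was kept in both. Transcript shares and cell type medians are given over all 24 libraries. In bulk tissue, fewer cells of a type and less RNA per cell cannot be told apart.

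Most of the 39 genes were lower in the 2 libraries with pituitary transcripts than in the rest of their group. The mean deviation of the 39 genes from their average over all 24 libraries was -0.35 in saline 2 and -0.24 in saline 3 on the log2 scale. In the other saline libraries it was between -0.08 and 0.09. In saline 2 and 3 together, 27 of the 39 genes lay below all 6 other saline libraries, 3 lay above all 6 and 9 were mixed or inside. Over 15641 genes tested, 21.8% lay below and 21.5% above in the same way, against 69.2% and 7.69% of the members. The median ratio of the mean of these 2 libraries to the mean of the other 6 was 0.75. Syt2, a fast calcium sensor, had the lowest ratio, 0.532. Cplx1 (complexin 1) had 0.54 and Syngr3 (synaptogyrin 3) had 0.609. The 3 genes above all other saline libraries were Syt7, a slow calcium sensor, at 225.3 and 250.7 CPM against 159.7 to 180.5, Rab3b, at 128.5 and 118.8 CPM against 82.2 to 105.1, and Unc13b, at 40.1 and 44.4 CPM against 36.1 to 39.8. The part of the pituitary transcripts in these levels was not tested.

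**Figure D2:**
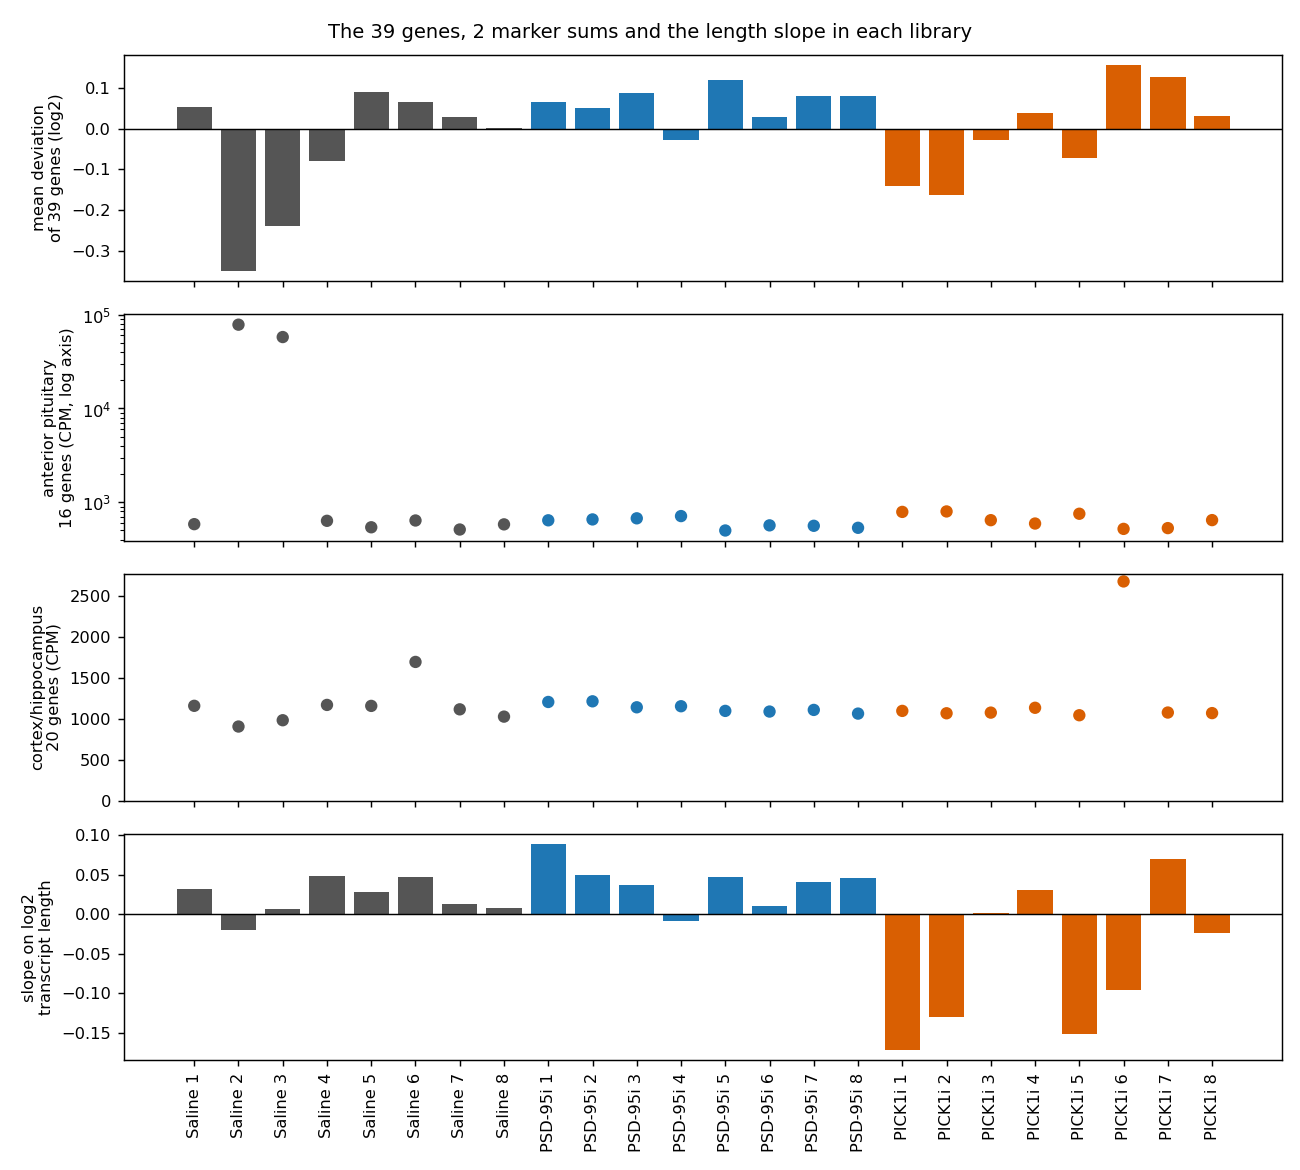
From top to bottom, for each of the 24 libraries, the mean log2 deviation of the 39 genes from their average over all libraries, the summed CPM of 16 anterior pituitary genes on a log axis, the summed CPM of 20 cortical and hippocampal genes, and the slope against log2 transcript length of the other genes' log2 deviations. Saline 2 and 3 have the lowest mean deviations (-0.35 and -0.24) and the highest pituitary sums.

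PICK1i replicate 6 differed in the other direction for most of the genes. In it 22 of the 39 genes lay above the other 7 PICK1i libraries, 8 lay below and 9 lay inside their range (56.4% above and 20.5% below). Of 15641 genes tested, 20.2% lay above and 19.1% below. The median ratio to the mean of the other 7 was 1.153. Stx1a stood at 117.0 CPM against 59.4 to 73.0, Rims1, an active zone organiser, at 66.0 against 28.4 to 42.8, and Snap25 at 2241.3 against 1205.8 to 1463.6 CPM. Sv2c and Doc2b lay furthest below, at 45.9 CPM against 53.9 to 103.5 and at 76.2 against 87.0 to 121.4 CPM. Sv2c codes for an SV2 protein with a restricted pattern in deep brain regions, and Doc2b for a calcium sensor of spontaneous release. The part of the cortical transcripts in these levels was not tested.

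The spread within a group was smallest in PSD-95i with all libraries. The coefficient of variation over its 8 libraries had a median of 7.26% over the 39 genes, with a range of 1.59% to 22.8%. The median was 14.1% in saline and 15.7% in PICK1i, the groups that hold the 3 libraries above. Without those libraries the median was 6.9% in saline (4.28% to 26.9%, n = 6) and 14% in PICK1i (4.37% to 29.1%, n = 7), so saline and PSD-95i were then close and PICK1i remained the widest.

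Whether release machinery transcripts differ after PSD-95 inhibition was read from PSD-95i against saline. None of the 39 genes was called higher or lower at an adjusted p under 0.05 (edgeR quasi-likelihood test over 15667 genes), where the background of called genes was 0% (0 of 15667). At an unadjusted p under 0.05 there were 7 members and 1719 of all genes, and DESeq2 and limma-voom called 0 members and 0 genes (0% of 15667 for each). Of the 39 fold changes 33 were above 0, with a median log2 value of 0.13 against -0.003 for all genes. No gene had groups that did not overlap (0 of 39, against 0.0575% of 15641 genes), nor without the 3 libraries (0 of 39, against 0.0703% of genes).

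The 4 genes with the smallest p were Syn1, Syngr3, Syngr1 and Nsf. Syngr3 had 107.1, 189.2 and 204.9 CPM as the lowest, median and highest library in saline and 196.9, 200.8 and 205.7 CPM in PSD-95i. All 8 PSD-95i libraries lay above the saline median, while the groups overlapped. Its log2 fold change was 0.22 ± 0.10 (SE, edgeR adjusted p = 0.429). Syngr1, which codes for another synaptogyrin of the vesicle membrane, had 299.3, 435.6 and 509.4 CPM in saline and 457.6, 487.1 and 515.8 CPM in PSD-95i, a log2 fold change of 0.22 ± 0.10 (adjusted p = 0.431). Nsf, the ATPase that takes SNARE complexes apart, had 391.2, 561.7 and 613.3 CPM against 553.7, 591.6 and 661.0 CPM in PSD-95i. Syn1 had 325.1, 422.9 and 498.2 CPM in saline against 450.3, 458.8 and 507.4 CPM in PSD-95i. In each of these 4 genes the lowest saline value was that of saline 2 or 3.

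Without saline 2 and 3 and PICK1i 6 the median of the 39 fold changes in PSD-95i was 0.04, with 25 above 0 and 14 below. Again 0 members were called (background 0% of 15796 genes, 472 of them at an unadjusted p under 0.05), and 1 member had an unadjusted p under 0.05. That member was Cplx2 (complexin 2), with a log2 fold change of -0.15 ± 0.07, named after its value was seen. Cplx2 stood at 541.8 CPM in saline 6, the saline library with the highest cortical and hippocampal sum. It had 367.1 to 416.0 CPM in the other saline libraries kept and 350.7 to 414.6 CPM in PSD-95i. The part of saline 6 in this value was not tested. Syngr3, Syngr1, Nsf and Syn1 then stood at log2 fold changes of 0.07, 0.09, 0.08 and 0.08, each with an adjusted p of 1. Leaving out the 3 libraries moved these 4 values by more than 1.5 times.

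By role, PSD-95i fold changes were above 0 for 7 of 7 SNARE genes (median log2 value 0.13, from 0.07 for Vamp2 to 0.26 for Vamp1), with none called. The calcium sensors and complexins ran from -0.13 (Syt7) to 0.33 (Syt2), with 7 of 9 above 0. The active zone genes ran from -0.10 (Unc13b) to 0.16 (Ppfia3), with 7 of 8 above 0. For the 4 genes of Rab3 and its effector the range was -0.13 (Rab3b) to 0.17 (Rab3a, and Rph3a at 0.17). For the 7 vesicle membrane genes it was -0.08 (Sypl) to 0.22. Syn2 stood at 0.16 and Syn3 at -0.11 among the synapsins, and Dnm1 at 0.21. With the 3 libraries left out, 5 of 7 SNARE genes were above 0 (median 0.07), 6 of 9 calcium sensors and complexins (0.04), 4 of 8 active zone genes (-0.01) and 2 of 4 genes of Rab3 and its effector (0.01). The vesicle membrane genes then had 5 of 7 above 0 (0.06), the synapsins 2 of 3 (0.04), and Dnm1 stood at 0.09. Syt7, Rab3b and Unc13b, the genes that lay above the other saline libraries in saline 2 and 3, were 3 of the 6 members below 0.

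The comparison of PICK1i with saline asked the same question after PICK1 inhibition. Rab3a, Unc13a, Snap25, Napa and Syp rose, each by less than 1.3-fold, and 0 members fell. These 5 of 39 genes (edgeR adjusted p under 0.05) stood against a background of 4.88% of 15667 genes called higher and 4.27% called lower, 9.15% in all. The median of the 39 log2 fold changes was 0.02, with 22 above 0 and 17 below, against -0.009 for all genes. At an unadjusted p under 0.05 there were 12 members and 4509 of all genes. All 5 calls were lost without saline 2, saline 3 and PICK1i 6.

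Rab3a, a vesicle GTPase (ENSMUSG00000031840, chr8:70754679-70758677), had 235.7, 359.2 and 405.9 CPM as the lowest, median and highest library in saline and 367.5, 448.2 and 556.0 CPM in PICK1i. All 8 PICK1i libraries lay above the saline median, and the groups overlapped. Its log2 fold change was 0.37 ± 0.10 (SE, edgeR adjusted p = 0.0234), and 0.20 ± 0.07 with adjusted p = 0.138 without the 3 libraries. The PSD-95i libraries had 345.9, 377.9 and 424.3 CPM.

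Unc13a (ENSMUSG00000034799, chr8:71624417-71671757) had 205.4, 233.6 and 263.0 CPM in saline and 244.9, 265.9 and 339.9 CPM in PICK1i. Again 8 of 8 PICK1i libraries lay above the saline median, and the highest was PICK1i 6. The log2 fold change was 0.23 ± 0.07 (adjusted p = 0.0314), and 0.13 ± 0.06 with adjusted p = 0.191 without the 3 libraries.

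Snap25 (ENSMUSG00000027273, chr2:136713453-136782428) had 942.0, 1209.5 and 1314.7 CPM in saline and 1205.8, 1393.5 and 2241.3 CPM in PICK1i. The lowest saline value was that of saline 2 and the highest PICK1i value that of PICK1i 6. The log2 fold change was 0.32 ± 0.09 (adjusted p = 0.0321), and 0.14 ± 0.05 with adjusted p = 0.132 without the 3 libraries. The remaining 7 PICK1i libraries then spanned 1205.8 to 1463.6 CPM and the remaining 6 saline libraries 1164.8 to 1314.7 CPM.

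Napa, an adaptor of NSF (ENSMUSG00000006024, chr7:16098458-16117975), had 136.9, 165.8 and 176.2 CPM in saline and 160.6, 191.3 and 213.0 CPM in PICK1i. Of the 8 PICK1i libraries 6 lay above the saline median. The log2 fold change was 0.21 ± 0.06 (adjusted p = 0.0321), and 0.14 ± 0.06 with adjusted p = 0.158 without the 3 libraries. Syp (ENSMUSG00000031144, chrX:7638471-7653256) had 604.0, 839.4 and 948.3 CPM in saline and 848.1, 923.6 and 1048.0 CPM in PICK1i, with 8 of 8 above the saline median. The log2 fold change was 0.22 ± 0.07 (adjusted p = 0.0477), and 0.10 ± 0.05 with adjusted p = 0.255 without the 3 libraries. The Syp call was the least steady of the 5. With 1 library left out at a time it was kept in 5 of 24 fits and lost in 19 (adjusted p 0.027 to 0.0985), where Rab3a kept its call in 21, Snap25 in 20, Unc13a in 18 and Napa in 17.

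**Figure D3:**
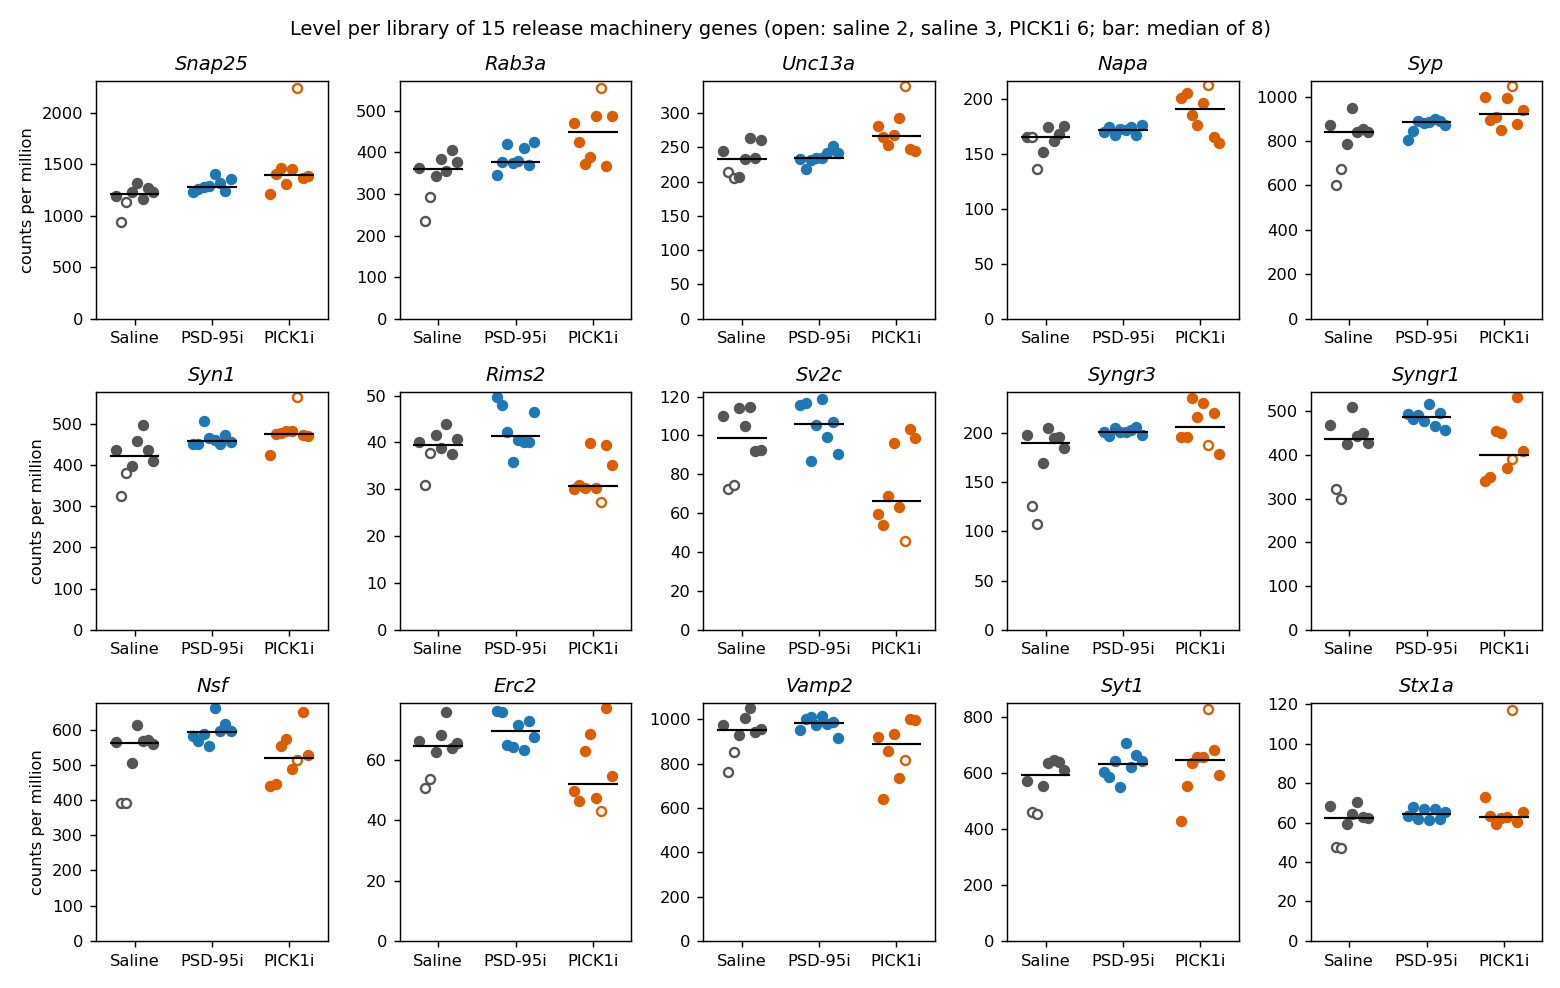
Level in CPM of the 15 genes described singly, by group, with 1 point per library and a bar at the median of 8. Open points are saline 2, saline 3 and PICK1i 6; in Snap25 and Stx1a the open PICK1i point (2241.3 and 117.0 CPM) lies far above the rest of its group.

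Among the genes not called, Syn1 had 424.6, 476.6 and 565.3 CPM in PICK1i (log2 fold change 0.21 ± 0.07, adjusted p = 0.0515), and all 8 libraries lay above the saline median. Rims2, an active zone organiser, and Sv2c had negative values of nearly the same rank. Rims2 had 30.9, 39.4 and 43.9 CPM in saline and 27.3, 30.6 and 39.8 CPM in PICK1i (log2 fold change -0.23 ± 0.08, adjusted p = 0.0718). Sv2c had 72.4, 98.7 and 114.5 CPM in saline and 45.9, 66.0 and 103.5 CPM in PICK1i (-0.38 ± 0.14, adjusted p = 0.0752). Without the 3 libraries, Rims2 stood at -0.26 ± 0.08 (adjusted p = 0.119) and Sv2c at -0.43 ± 0.12 (adjusted p = 0.109). Syn1 moved to 0.09 ± 0.05 (adjusted p = 0.298). Other settings, which kept saline 2 and 3, made the 2 values less negative. With the length slope described below as a covariate, Rims2 stood at -0.07 ± 0.07 and Sv2c at -0.10 ± 0.11. Without PICK1i 1, 2, 5 and 6 they stood at -0.11 ± 0.09 and -0.08 ± 0.13. In saline 2 and 3 Sv2c had 72.4 and 74.3 CPM, against 92.2 to 114.5 CPM in the other saline libraries. Rims2 had 30.9 and 37.8 CPM there, against 37.5 to 43.9 CPM. The part of saline 2 and 3 in these values was not tested.

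The other defining members did not pass the test. Vamp2 had 759.6, 949.1 and 1051.1 CPM in saline and 640.5, 888.9 and 1000.2 CPM in PICK1i (log2 fold change -0.12 ± 0.08, adjusted p = 0.339). Syt1 had 453.9, 590.7 and 645.1 CPM in saline and 426.4, 646.2 and 827.5 CPM in PICK1i (0.14 ± 0.10, adjusted p = 0.353). Stx1a had 46.9, 62.4 and 70.2 CPM in saline against 59.4, 62.9 and 117.0 CPM in PICK1i (0.22 ± 0.11, adjusted p = 0.185), and -0.02 ± 0.05 without the 3 libraries.

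By role, 2 of 7 SNARE and disassembly genes rose, with a median log2 fold change of 0.21 and a range of -0.12 to 0.32. Of the 9 calcium sensors and complexins none was called, with values from -0.18 (Syt4) to 0.24 (Syt2). Of the 8 active zone genes 1 rose, and the values ran from -0.23 (Rims2) to 0.30 (Rims1) around a median of 0.01. Of the 4 genes of Rab3 and its effector 1 rose, and Rab3c stood lowest at -0.11. Of the 7 vesicle membrane genes 1 rose, while Sv2c, Sv2b, Sypl and Syngr1 had negative values. Syngr3 and Sv2a had positive values and were not called. Syngr3 stood at 0.27 ± 0.10 (edgeR adjusted p = 0.0758), and at 0.13 ± 0.06 (adjusted p = 0.191) without the 3 libraries. Sv2a stood at 0.02 ± 0.09. Syn2 and Syn3 stood at -0.03 and -0.13, and Dnm1 at 0.14. Without the 3 libraries 0 members were called (background 0.019% higher and 0% lower of 15796 genes). The median was then -0.05, with 14 values above 0 and 25 below, and 12 members had an unadjusted p under 0.05, where 3302 of all genes did. Of these 12, 7 were among the 12 found with all libraries.

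**Figure D4:**
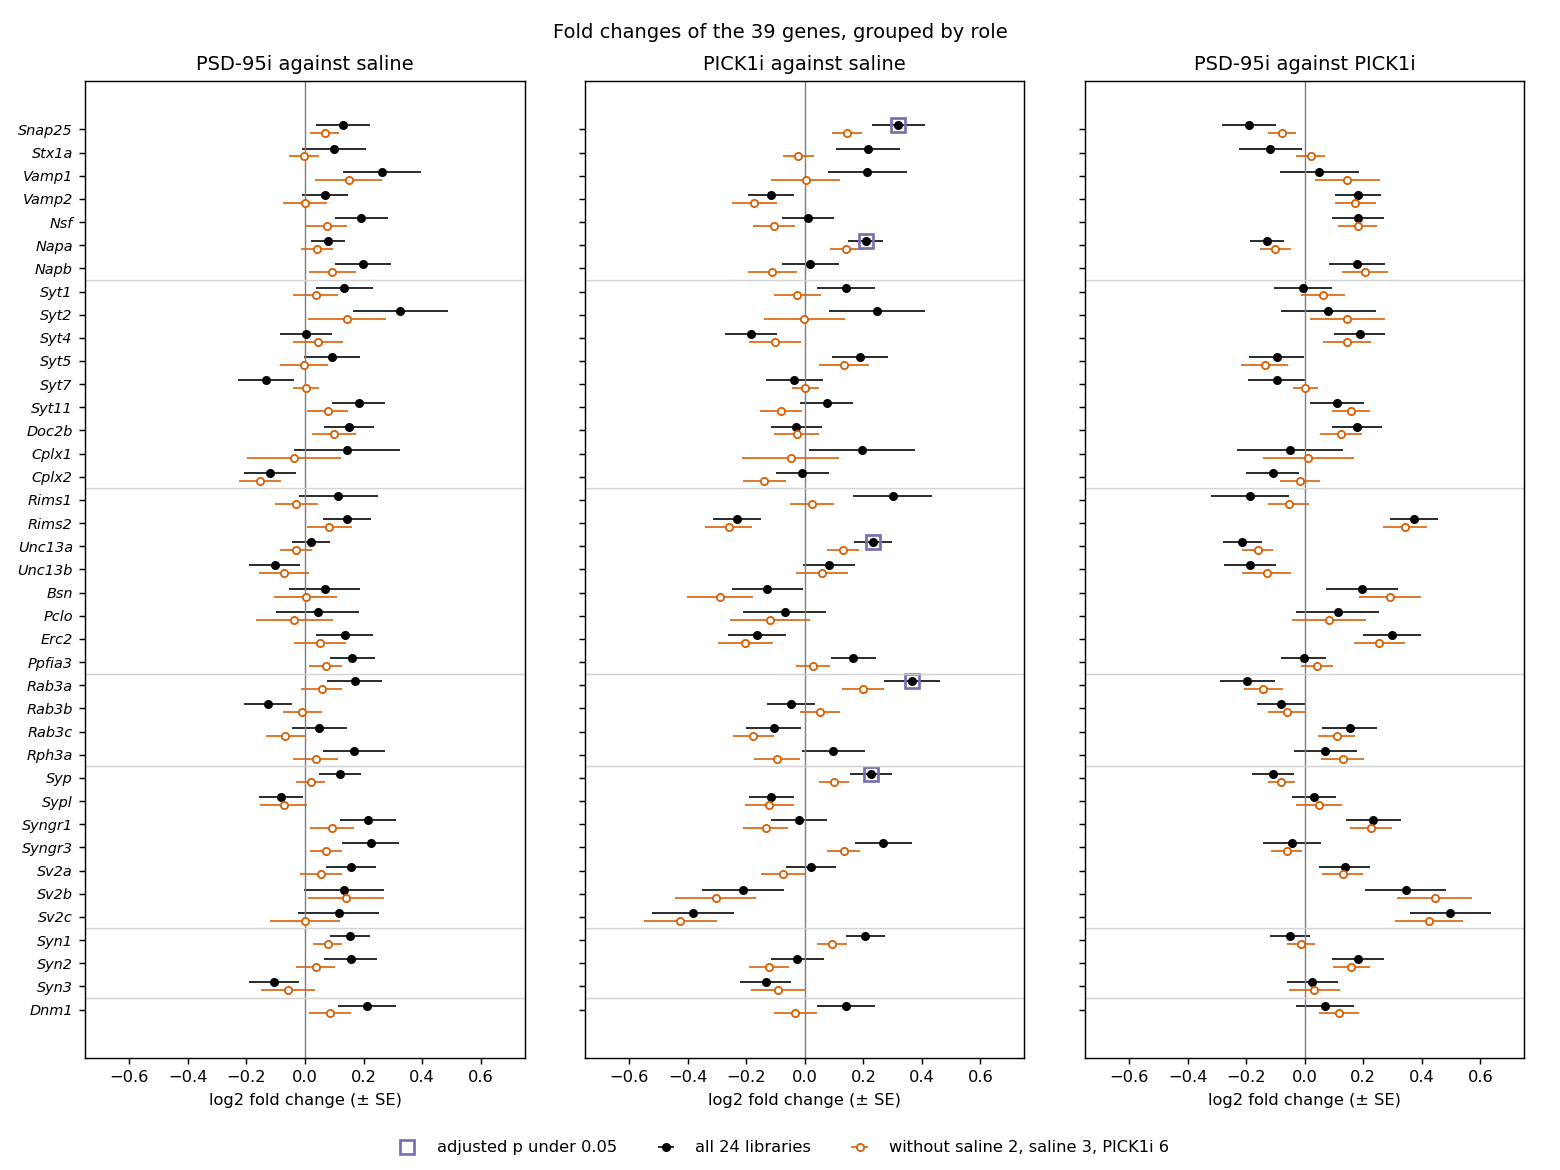
Log2 fold change ± SE of each of the 39 genes in the 3 comparisons, with all 24 libraries (filled) and without saline 2, saline 3 and PICK1i 6 (open); squares mark an adjusted p under 0.05 and grey lines separate the roles. Squares were drawn for the fit with 24 libraries only, and there are 5, all in PICK1i against saline. None of the 39 genes passed the threshold without saline 2, saline 3 and PICK1i 6.

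Which of the 3 libraries was left out mattered for the 5 calls. Leaving out saline 2 alone, PICK1i 5 alone or PICK1i 6 alone gave 0 higher members, and leaving out saline 3 alone gave 1. Without PICK1i 6 the background was 1.99% of 15769 genes higher and 1.43% lower, 3.42% in all. Leaving out saline 4 gave 2, and PICK1i 1 or PICK1i 2 gave 3. For the other fits with a single library left out, the share of all genes called is not given here. Their counts therefore do not set the members apart from all genes. Leaving out saline 2 and 3 together gave 0 higher and 0 lower members, with Sv2c at the smallest adjusted p, 0.0675 (background 0.0253% of 15820 genes higher and 0.00632% lower, 0.0316% in all). The members' CPM in PICK1i and saline overlapped in 39 of 39 genes (0.179% of 15641 genes did not overlap, and 0.435% without the 3 libraries, where again all 39 overlapped).

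PICK1i fold changes of the members were related to transcript length. Over the 39 genes, Pearson's r between the log2 fold change and log2 transcript length was -0.48, and -0.58 without the 3 libraries. These points are genes of the same libraries and not replicates, so no p is given. Among the 20 genes of 1398 to 3892 bases 14 values were above 0, with a median of 0.16. Among the 19 genes of 4073 to 17550 bases 8 were above 0, with a median of -0.02. In PSD-95i against saline the same r was -0.05.

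**Figure D5:**
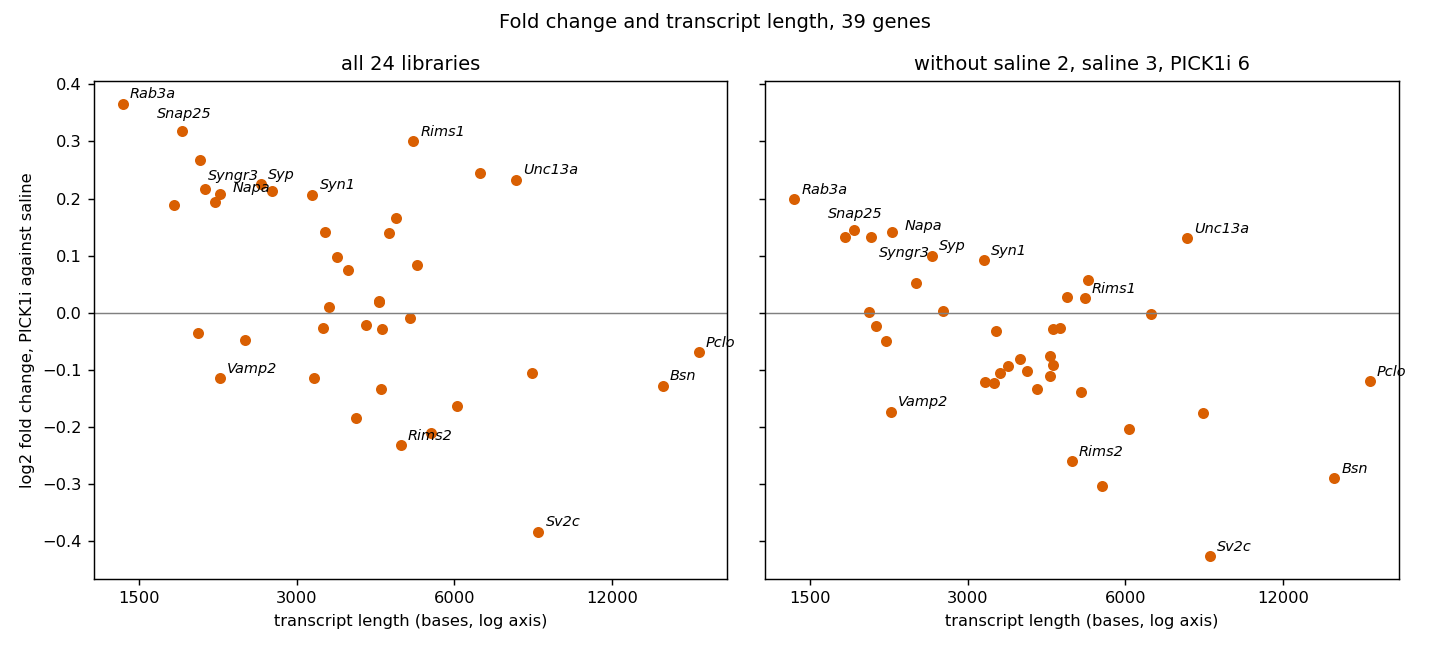
Log2 fold change of the 39 genes in PICK1i against saline plotted on transcript length (log axis), with all libraries on the left and without saline 2, saline 3 and PICK1i 6 on the right; each point is 1 gene. Rab3a (1398 bases) is highest and Sv2c (8681 bases) lowest in both plots.

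The same relation to length was seen outside the 39 genes. Over genes other than the members, the slope against log2 transcript length of a library's log2 deviations was -0.17, -0.13, -0.15 and -0.10 in PICK1i 1, 2, 5 and 6, and between -0.024 and 0.0885 in the other 20 libraries. In those 4 libraries the 13 mitochondrially encoded genes also had their highest sums, 125552 to 153989 CPM. Nsf, Syt4, Erc2, Rab3c, Syngr1, Sv2c and Syn2 lay below the other 4 PICK1i libraries in all 4, and Napa and Unc13b above. That is 17.9% of the members below and 5.13% above, where 11.1% of 15641 genes tested lay below and 9.45% above. With the slope as a covariate 0 members were called in PICK1i against saline and the median log2 fold change was 0.14. Without the 4 libraries 0 members were called and the median was 0.11. Both fits kept saline 2 and 3, in which 27 of the 39 genes lay below the other 6 saline libraries. The part of saline 2 and 3 in these medians was not tested. The smallest edgeR adjusted p of a member was 0.14 (Syn1) with the covariate and 0.367 (Snap25 and Unc13b) without the 4 libraries. The share of all genes called in these fits is not given here, so the counts do not set the members apart from all genes. PICK1i 1, 2, 5 and 6 carry library numbers 1, 2, 13 and 14, and PICK1i 3, 4, 7 and 8 carry 5, 6, 19 and 20. Which cage each library came from is not stated, so neighbouring libraries may not be independent. With a random block of consecutive libraries 0 members were called higher in PICK1i against saline. Slope and PICK1i treatment overlap in these samples, so their parts in the member values cannot be told apart.

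The direct comparison of PSD-95i with PICK1i does not use the saline libraries in its means. Rims2 and Sv2c, with higher values in PSD-95i, and Unc13a, with a lower one, had the smallest p, and none passed the threshold in edgeR. None of the 39 genes was called (background 0% of 15667 genes), while 13 members and 3789 of all genes had an unadjusted p under 0.05. The members' median log2 difference was 0.05, with 22 above 0 and 17 below, against -0.01 for all genes. DESeq2 called 3 members higher and 1 lower, where it called 7.18% of 9896 genes higher and 6.55% lower. With limma-voom 2 members were higher and 0 lower, where 1.95% of 15667 genes were higher and 0.785% lower. In all 39 genes the groups overlapped (0.0511% of 15641 genes did not, and 0.0703% without the 3 libraries).

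Rims2 had 35.9, 41.4 and 49.6 CPM in PSD-95i against 27.3, 30.6 and 39.8 CPM in PICK1i. The groups overlapped only between 35.9 and 39.8 CPM. The log2 difference was 0.37 ± 0.08 (SE, edgeR adjusted p = 0.0513, DESeq2 adjusted p = 0.00745). Sv2c had 86.6, 106.1 and 118.6 CPM against 45.9, 66.0 and 103.5 CPM, a log2 difference of 0.50 ± 0.14 (edgeR adjusted p = 0.0524), and was also called by DESeq2. Erc2, which codes for the active zone scaffold ELKS2, had 63.3, 69.6 and 76.2 CPM against 43.0, 52.2 and 77.1 CPM (0.30 ± 0.10, edgeR adjusted p = 0.079). Unc13a had 217.8, 234.6 and 251.4 CPM against 244.9, 265.9 and 339.9 CPM (-0.21 ± 0.07, edgeR adjusted p = 0.0656).

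Without the 3 libraries the direct differences kept their sizes within 1.5 times in these 4 genes. Rims2 stood at 0.34 ± 0.08 (adjusted p = 0.0593), Sv2c at 0.42 ± 0.12 (adjusted p = 0.0628), Erc2 at 0.25 ± 0.09 (adjusted p = 0.0853) and Unc13a at -0.16 ± 0.05 (adjusted p = 0.0729). Again 0 members were called (background 0.00633% of 15796 genes), and the median was 0.08, with 27 above 0 and 12 below. Without saline 2 and 3 alone, which enter this comparison through the shared estimate of spread and the scaling, Rims2, Sv2c, Syngr1 and Erc2 were called higher in PSD-95i and Unc13a lower. Their adjusted p ran from 0.0324 to 0.0456, where 4.13% of 15820 genes were called higher and 3.5% lower, 7.64% in all. The 4 values were smaller when the length slope was taken into account. With it as a covariate, Rims2 stood at 0.17 ± 0.08, Sv2c at 0.15 ± 0.12, Erc2 at 0.02 ± 0.07 and Unc13a at -0.13 ± 0.08, with 0 members called and a median of -0.04. Without PICK1i 1, 2, 5 and 6 they stood at 0.25 ± 0.09, 0.19 ± 0.13, 0.08 ± 0.09 and -0.10 ± 0.06. The share of all genes called with the covariate is not given here. The adjusted p was 1 for each of the 4 in both settings.

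By role, the direct differences of the SNARE and disassembly genes ran from -0.19 (Snap25) to 0.18 (Vamp2 and Nsf). The calcium sensors and complexins ran from -0.11 (Cplx2) to 0.19 (Syt4), and the active zone genes from -0.21 (Unc13a) to 0.37 (Rims2). The Rab3 genes and Rph3a ran from -0.20 (Rab3a) to 0.15 (Rab3c). The vesicle membrane genes ran from -0.11 (Syp) to 0.50 (Sv2c), with Sv2b at 0.34 and Syngr1 at 0.24. Among the synapsins Syn1 stood at -0.05 and Syn2 at 0.18, and Dnm1 stood at 0.07. The comparisons with saline share the same 8 saline libraries, so their values are given side by side only.

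Of a wider list of 84 presynaptic genes outside the 39, 83 were in the table and tested. In PICK1i against saline 7 rose and 6 fell, with a median log2 fold change of 0.01, beside the 4.88% of all genes called higher and 4.27% called lower. Sncg, which codes for a small neuronal protein, rose by 0.51 ± 0.10 (edgeR adjusted p = 0.0175), from 33.3 to 57.5 CPM in saline to 53.2 to 92.3 CPM in PICK1i. Sncb rose by 0.53 ± 0.13 (adjusted p = 0.0197). Lin7b, an adaptor of the CASK complex, rose by 0.51 ± 0.13 (adjusted p = 0.0219).

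Syt10, a synaptotagmin, and Slc17a8, the vesicular glutamate transporter VGLUT3, fell by 0.82 ± 0.23 and 1.10 ± 0.32 (adjusted p = 0.0282 and 0.035). Slc17a8 was at 10.9 CPM in its highest saline library and at most 3.24 CPM in PICK1i. Without the 3 libraries 0 of the 83 were called. The log2 fold changes were then 0.41 for Sncg (adjusted p = 0.0901), 0.30 for Sncb, 0.33 for Lin7b, -0.68 for Syt10 and -0.34 for Slc17a8.

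In PSD-95i against saline 0 of the 83 genes were called, with 19 at an unadjusted p under 0.05 (1719 of all 15667 genes) and a median of 0.12. The smallest p values were those of Syngr2 (-0.48), Rab3d (-0.76), Slc17a7 (-3.42), Slc17a6 (0.29), Rims4 (0.23) and Stx3 (-0.21), with adjusted p of 0.356 to 0.396. Their values without the 3 libraries were -0.14, -0.18, -3.71, 0.21, 0.14 and -0.09, with an adjusted p of 0.585 for Slc17a7 and 1 for the others. Syngr2 and Rab3d had their highest saline libraries at 28.0 and 21.1 CPM, against saline medians of 13 and 7.76 CPM. Slc17a7 codes for VGLUT1, the transporter of cortical glutamatergic terminals. It spanned 0.986 to 81.5 CPM in saline, 0.854 to 2.15 CPM in PSD-95i and 1.13 to 261.7 CPM in PICK1i. Its highest values were in saline 6 and PICK1i 6, the libraries with the highest sums of cortical genes in their groups, a list that holds Slc17a7 itself. Slc17a6 codes for VGLUT2, the transporter of most hypothalamic glutamate neurons. It had 138.7, 174.1 and 218.4 CPM in saline and 191.3, 218.0 and 254.3 CPM in PSD-95i.

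Between the inhibitors 0 of the 83 were called, with 29 at an unadjusted p under 0.05 (3789 of all 15667 genes) and a median log2 difference of 0.11. Syt10 stood at 0.96 ± 0.22 and Rab3gap1, a regulator of Rab3, at 0.22 ± 0.06, both at an adjusted p of 0.0513. Slc17a7 stood at -4.51 ± 1.26 (adjusted p = 0.0515), and at -0.69 ± 0.96 without the 3 libraries. Sncg stood at -0.35, Syt9 at 0.31 and the endocytic phosphatase gene Synj1 at 0.39, with adjusted p of 0.0584 to 0.0683. Without the 3 libraries Syt10 stood at 0.83, Rab3gap1 at 0.20, Sncg at -0.36, Syt9 at 0.27 and Synj1 at 0.38.

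Other cell types were read beside these values. The 20 general neuron genes summed to a median of 19003 CPM in saline libraries, 19338 with PSD-95i and 20197.5 with PICK1i, and to 16360 and 19070 CPM in saline 2 and 3. The 10 oligodendrocyte genes had medians of 6255, 6298.5 and 7469.5 CPM and the 10 astrocyte genes 3686, 3774.5 and 3566.5 CPM in the same order. The 10 microglia genes had medians of 505, 508.5 and 486.5 CPM, the 10 endothelium and pericyte genes 365.5, 321 and 346 CPM, and the 8 choroid plexus genes 101.5, 100.1 and 81 CPM. The 13 mitochondrially encoded genes had medians of 85814.5, 84900 and 112809.5 CPM. The part of these cell types in the member values was not tested.

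RefSeq promoter windows on GRCm38.p6 were found for 30 of the 39 genes, and the 250 bases before the start site were searched on both strands. The GC box GGGCGG, a site of Sp-family factors, was in 20 of 30 windows (66.7%) and in 32.7% of all 32851 windows. Each member gave 1 window, that nearest to the start of its leading transcript. All windows count every start site listed, with more than 1 for some genes and without regard to expression. The member and overall values for motifs and GC content therefore rest on unlike choices of window. The windows of Cplx2, Syt11 and Stx1a lie 68793, 20548 and 17578 bases from the start of the leading transcript. For 25 of the 30 windows the bases just after the start site were found in a transcript of the gene. Within 500 bases of the leading transcript's start, a distance chosen after the windows were seen, were 27 windows, 18 of them (66.7%) with a GC box. Only transcripts in GENCODE M21 could lead, so the Ppfia3 distance is to Ppfia3-201, with 2.74% of its saline counts. The Stx1a window lies beyond 500 bases but ends just before the annotated gene start. Its leading transcript is the retained intron Stx1a-205. The members' windows had a median GC content of 61.6% against 52.4% over all windows. The CRE palindrome TGACGTCA was in 1 member (Syn1) and in 1.55% of all windows. The 9-base motif TTCAGCACC, part of the RE1 element bound by the neuronal repressor REST, was in Ppfia3 and Syn1 and in 0.301% of all windows. CCAAT was in 8 of 30 member windows (26.7%) and in 33.8% of all, and TATAAA in 2 (6.7%) and in 12.4% of all. No searched motif contains another, and a match is a description only.

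Unc13a and Sv2c are shown because their differences between the inhibitors, neither of them called by edgeR, had opposite signs, and because their windows begin at the start of the leading transcript and hold no annotated exon. GC boxes are in capitals (CCGCCC is the same box on the other strand). The Unc13a window lies at chr8:71671758-71672007 on the reverse strand, with 2 GC boxes, and the Sv2c window at chr13:96132578-96132827 on the reverse strand, with 2.

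Unc13a: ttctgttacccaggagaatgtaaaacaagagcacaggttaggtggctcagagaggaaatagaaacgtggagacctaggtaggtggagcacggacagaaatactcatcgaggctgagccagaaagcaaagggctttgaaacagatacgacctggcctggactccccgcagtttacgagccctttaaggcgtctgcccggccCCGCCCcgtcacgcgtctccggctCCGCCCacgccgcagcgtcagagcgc
Sv2c: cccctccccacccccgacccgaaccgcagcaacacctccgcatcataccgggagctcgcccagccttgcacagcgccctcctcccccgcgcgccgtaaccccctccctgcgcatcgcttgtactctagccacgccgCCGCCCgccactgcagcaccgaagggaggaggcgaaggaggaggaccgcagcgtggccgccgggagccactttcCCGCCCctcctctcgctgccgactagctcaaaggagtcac

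Both windows hold the same number of GC boxes, and neither holds TGACGTCA or TTCAGCACC. GC content was 58% in Unc13a and 70.8% in Sv2c.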

How the data were processed

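Both deposited tables give the authors' estimated counts without normalisation, for genes and for transcripts, from paired reads of 52 bases. Per the submitters' processing notes, bcl2fastq 2.20.0, STAR, Salmon and GRCm38 were used, while options, annotation and strand setting were not given in the sources used here. Whole numbers within 0.001 made up 94.3% of gene values. No 2 of the 24 libraries were identical. Estimated counts were rounded, filtered (filterByExpr, minimum count 10; 15667 genes with 99.3% of counts), scaled by TMM and tested by edgeR 4.0.16 quasi-likelihood in R 4.3.3, with 1 fit to 24 libraries (21 residual degrees of freedom), two-sided, Benjamini-Hochberg adjustment over all genes and a threshold of 0.05. The biological coefficient of variation was 14.4%. Standard errors are the fold change divided by the root of F. CPM uses TMM-scaled totals, and log2 values a prior count of 2. Transcript lengths, weighted by counts, and positions are from GENCODE M21. Reads limit precision, with totals of 4762703 to 9228858.

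The 39 genes, the role, wider and marker lists and the alternatives were chosen with earlier results of these data known. Genes described singly were those called in any comparison with all libraries or without saline 2, saline 3 and PICK1i 6, the 4 with the smallest p in each comparison, and Snap25, Syp, Syt1, Stx1a and Vamp2. In the wider list they were the 6 with the smallest p in each comparison, 1 of which is not reported here. Tspoap1 was not analysed here. Alternatives were RLE scaling, no or a stricter filter (at least 1 CPM in 8 libraries and a minimum count of 30), DESeq2 1.42.0, limma-voom (limma 3.58.1), blocks by replicate number and by consecutive library numbers, only the 2 groups compared, the length slope as a covariate, and leaving out libraries. The edgeR step was first tested on simulated counts.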

Additional observations from a re-analysis of the deposited data

Results flagged for a closer look

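In groups of 8 libraries, a highest or lowest library was marked when its gap to the next, as a share of the group's range, exceeded Dixon's 95% critical value for 8 values. Of 75 such groups, covering the described genes and the list sums, 8 were marked, and chance marks about 1 in 20. Snap25 stood at 2241.3 CPM in PICK1i 6 (others 1205.8 to 1463.6), Stx1a at 117.0 CPM in PICK1i 6 (others 59.4 to 73.0) and Syn1 at 565.3 CPM in PICK1i 6 (others 424.6 to 483.7). Syn1 also stood at 507.4 CPM in PSD-95i 3 (others 450.3 to 474.1). The sum of general neuron genes was 16360 CPM in saline 2 (others from 18692). The sum of cortical and hippocampal genes was 1693 CPM in saline 6 (others up to 1168) and 2676 CPM in PICK1i 6 (others up to 1133). The sum of mitochondrially encoded genes was 72865 CPM in saline 2 (others from 84979).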

How the results depend on the processing

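The count of members called in PSD-95i against saline was 0 in each direction under every alternative run. The 5 higher members in PICK1i against saline became 3 with no filter, and 0 with only the 2 groups compared, without saline replicates 2 and 3, without those and PICK1i replicate 6, without PICK1i replicates 1, 2, 5 and 6, with the length slope as a covariate, and with a random block of consecutive libraries. In PSD-95i against PICK1i the 0 higher members became 2 with a stricter filter (Rims2 and Sv2c), 3 with DESeq2, 2 with limma-voom and 4 without saline replicates 2 and 3, and the 0 lower members became 1 with DESeq2 and 1 without saline replicates 2 and 3. The cause of these shifts was not tested. The share of all genes called is given above for DESeq2 and limma-voom in the direct comparison. It is also given without saline replicates 2 and 3, with or without PICK1i replicate 6. For the other settings it is not given, so their counts do not set the members apart from all genes.

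Leaving out each library in turn gave 0 to 7 higher and 0 to 2 lower members in PICK1i against saline, and 0 to 4 higher and 0 to 1 lower in PSD-95i against PICK1i. The lower members appeared without PICK1i replicates 4 (2), 7 (2) and 8 (1). In the direct comparison, higher members appeared without saline replicate 2 (2) or 3 (2) and without PICK1i replicates 3 (1), 4 (3), 7 (4) and 8 (2), and a lower member without PICK1i replicates 4 (1) and 7 (1). Apart from the fit without PICK1i replicate 6, the share of all genes called in these fits is not given here. The counts therefore do not set the members apart from all genes.

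Some small uncalled values changed sign. In PSD-95i against saline, Stx1a was -0.002 and Vamp2 0 without saline replicates 2 and 3, and the same without PICK1i replicate 6 as well. In PICK1i against saline, Vamp2 was 0.018 without PICK1i replicates 1, 2, 5 and 6 and 0.002 with the length covariate, and without the 3 libraries Syt1 was -0.026 and Stx1a -0.023. In the direct comparison Syt1 was 0.012 with limma-voom, with or without that random block, 0.007 with the replicate block and 0.062 without the 3 libraries. Stx1a was 0.061 without PICK1i replicates 1, 2, 5 and 6 and 0.021 without the 3 libraries. With any library or set of libraries left out, Stx1a ran from -0.002 to 0.133 and Vamp2 from 0 to 0.094 in PSD-95i against saline, and Syt1 from -0.026 to 0.204 and Stx1a from -0.023 to 0.26 in PICK1i against saline. In the direct comparison, with 1 library left out at a time, Syt1 ran from -0.071 to 0.06 and Stx1a from -0.154 to 0.018.

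Replicate numbers gave no sign of pairing the samples. The correlation of same-numbered libraries ran from -0.194 to 0.15 (median 0.014), and 5 of 24 pairs were over 0.1. For differently numbered libraries it ran from -0.341 to 0.286 (median 0.004), and 40 of 168 pairs were over 0.1. With the replicate block, 5 members were higher in PICK1i against saline and 0 in the other comparisons. It moved the calls over all genes to 624 higher and 503 lower.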
